A study of Mus musculus with 3 samples.

Results

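Odorant-binding proteins and their nasal lipocalin relatives are small secreted carriers of the nasal mucus. The genes described here are Obp1a, Obp1b, Obp2a, Obp2b, Lcn3, Lcn4, Mup4, 5430402E10Rik, Gm14743 and Gm14744, 10 of the 55357 genes counted, chosen by symbol after earlier results on these libraries, so their levels are given as a description. The samples were 3 libraries of dissociated nasal mucosa from C57BL/6 mice (C57BL/6J by the sample labels), sequenced as single cells with 10x Genomics 3′ chemistry. In the PBS group the mice received intranasal PBS. In the papain group they received 20 µg of papain, a protease that provokes eosinophilic airway inflammation, into the nose and PBS into the stomach. In the lonidamine group they received the same papain and 10 mg/kg of lonidamine (LND), an inhibitor of energy metabolism, into the stomach. Each group had equal numbers of males and females, the number of mice is not given, and all mice of a group were pooled into 1 library, so the 3 libraries carry no replicates and no difference between them could be tested against the spread between animals.

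Lipocalins fold into a barrel with a cavity that holds small hydrophobic molecules. Odorant-binding proteins are lipocalins made by glands of the nose and released into the mucus over the olfactory epithelium, where they are thought to carry odorants to receptors and to take them away again. Lcn3 and Lcn4 were described as vomeronasal secretory proteins, and Mup4 belongs to the major urinary proteins, lipocalins that bind pheromones and, for some members, are made in nasal glands rather than in the liver. 5430402E10Rik, Gm14743 and Gm14744 carry no descriptive name and lie beside Obp1a and Obp1b on chromosome X.

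The genes fall into 3 chromosomal groups, and their upstream sequences show which of them are near copies. The stretches printed here hold 80 bases around the TATA-like element upstream of each start (RefSeq, GRCm38.p6), read in the direction of the gene; capitals mark TATAAA, or TATATAA where TATAAA was absent. The first set is the chromosome X group.
Obp1a: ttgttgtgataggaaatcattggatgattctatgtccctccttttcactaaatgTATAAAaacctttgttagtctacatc
Obp1b: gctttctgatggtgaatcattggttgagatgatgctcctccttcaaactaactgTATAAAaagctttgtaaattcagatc
Gm14743: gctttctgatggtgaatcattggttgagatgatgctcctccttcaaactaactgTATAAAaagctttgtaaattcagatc
Gm14744: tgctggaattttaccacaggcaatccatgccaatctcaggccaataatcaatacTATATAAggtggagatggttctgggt
5430402E10Rik: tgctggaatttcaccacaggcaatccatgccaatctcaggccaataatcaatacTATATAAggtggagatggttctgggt
They lie at chrX:78091379-78091458 (minus strand), chrX:78186693-78186772 (plus), chrX:78245966-78246045 (minus), chrX:77864672-77864751 (plus) and chrX:77925069-77925148 (minus).

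The second set is the chromosome 2 group with Mup4 of chromosome 4.
Obp2a: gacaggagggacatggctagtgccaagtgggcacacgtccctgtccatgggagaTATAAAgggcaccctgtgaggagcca
Obp2b: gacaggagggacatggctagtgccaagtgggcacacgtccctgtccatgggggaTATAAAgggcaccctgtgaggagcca
Lcn3: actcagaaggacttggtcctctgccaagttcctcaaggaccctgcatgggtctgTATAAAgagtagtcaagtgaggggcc
Lcn4: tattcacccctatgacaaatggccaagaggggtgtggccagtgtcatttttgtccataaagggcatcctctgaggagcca
Mup4: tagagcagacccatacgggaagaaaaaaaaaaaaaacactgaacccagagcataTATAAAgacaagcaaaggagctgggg
They lie at chr2:25699959-25700038 (plus), chr2:25736925-25737004 (plus), chr2:25765450-25765529 (plus), chr2:26671327-26671406 (minus) and chr4:59960669-59960748 (minus). Lcn4 held neither motif and is shown at the position most like Obp2a, with 41 of 80 bases equal.

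Obp1b and Gm14743 were equal at 80 of 80 bases, Gm14744 and 5430402E10Rik at 79 of 80, and Obp2a and Obp2b at 79 of 80. Obp1a and Obp1b were equal at 56 of 80 bases. TATAAA, searched on both strands of the 250 bases before the start, was found in 7 of the 10 genes and in 12.4% of the 32851 RefSeq promoters, and TATATAA in 3 of the 10 (Mup4 holds both, overlapping) and in 3.04%. The transcripts are near copies as well: in the last 400 bases, 55% of the 50-base stretches of Obp1b were also in Gm14743, and 84.9% of those of Gm14744 were also in 5430402E10Rik or Gm14750, whereas Obp1a, Obp2a, Obp2b, Lcn3 and Lcn4 shared none with any other gene of the GENCODE vM21 annotation. Of Mup4's stretches, 18.5% were shared with other major urinary protein genes. Values of Obp1b against Gm14743, and of Gm14744 against 5430402E10Rik, are therefore uncertain where counting could not place a read.

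The RNA of the 10 genes was in very few barcodes. A barcode is the tag of 1 droplet, and a UMI (unique molecular identifier) marks 1 captured transcript end. After filtering, the libraries held 9378 (PBS), 10524 (papain) and 11887 (lonidamine) barcodes, 79971740, 82918339 and 84998730 UMIs, and a median of 7352.5, 6547 and 5823 UMIs per barcode. The 10 genes took 418048 UMIs of the PBS library (0.523%), 511606 of the papain library (0.617%) and 796123 of the lonidamine library (0.937%). In each library 5 barcodes held more than 50% of them, and the 10 highest barcodes held 78.0%, 70.2% and 68.3%.

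The barcodes were counted in ranges of these genes' UMIs that widen with the number. By that count, PBS and lonidamine barcodes fell into 3 levels and papain barcodes did not. In the PBS library 2782 barcodes had 1 such UMI, 86 had 23 to 31 UMIs, and 178 had 45 to 63 UMIs. The numbers per range thus went down and up again. The lonidamine library also had a second peak, with 2114 barcodes at 4 to 5 UMIs, 239 at 32 to 44 and 319 at 45 to 63. The papain library had none, with 177 barcodes at 16 to 22 UMIs, 36 at 32 to 44 and 18 at 45 to 63. The range of 45 to 63 UMIs is wider than those before it, so the second peak is a peak over these ranges. It was not shown per UMI value. In all 3 libraries a separate tail lay above: 20, 31 and 29 barcodes had 1024 UMIs or more. The barcodes are described in 3 classes: those below 16 UMIs, the second peak of 32 to 180 UMIs, and source-rich barcodes in which the 10 genes made up 10% or more of all UMIs, which are in neither other class. These bounds were set after the distributions had been seen.

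**Figure D1:**
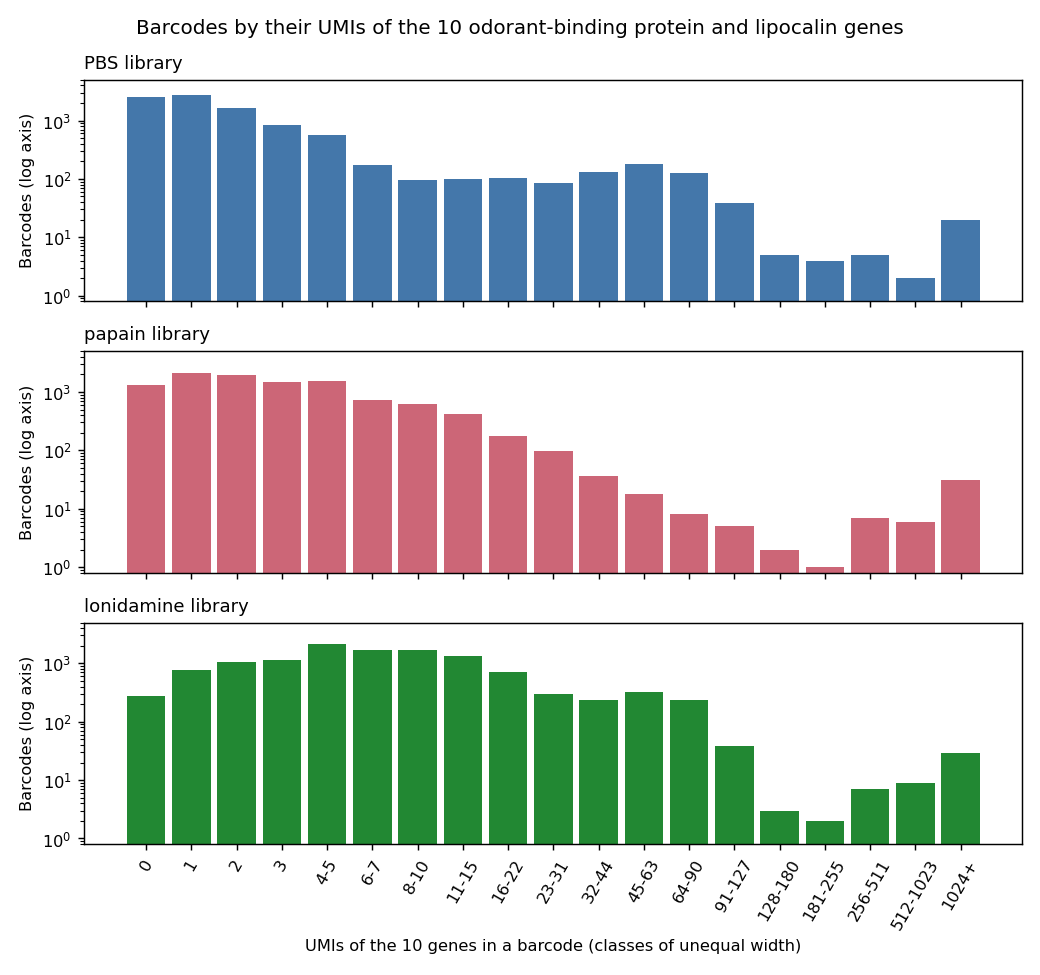
Number of barcodes (log axis) by their UMIs of the 10 genes, one panel per library; the classes on the x axis are of unequal width. On this axis of widening classes the PBS and lonidamine panels have a second peak, at 178 and 319 barcodes with 45 to 63 UMIs. The papain panel lacks it, and all 3 have a tail of 20, 31 and 29 barcodes with 1024 UMIs or more.

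The source-rich barcodes held most of the RNA. They numbered 24 in the PBS library (0.256% of barcodes, exact 95% binomial interval 0.164 to 0.381%), 45 in the papain library (0.428%, 0.312 to 0.572%) and 48 in the lonidamine library (0.404%, 0.298 to 0.535%), and held 88.1%, 91.8% and 83.8% of all UMIs of the 10 genes. These intervals cover counting error only. Within them the 10 genes made up a median of 65.3%, 51.4% and 51.3% of all UMIs, up to 84.9% in 1 PBS barcode. That barcode, of 21756 UMIs, had 716 genes and 0.028% mitochondrial UMIs, against PBS library medians of 2874 genes and 2.38%. The PBS barcode of 144129 UMIs had 7840 genes and 0.974%. Whether source-rich barcodes were intact cells was not tested. With the cut at 5% the numbers were 45, 53 and 84. None was called a doublet, and a further 10, 19 and 9 such barcodes were among those removed by the filters on UMIs, genes and mitochondrial share. Of the 117 kept, 108 met no cell class by the marker rule (3 or more markers well above the library mean), so they are given no cell type name.

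Their makeup showed 2 types of barcode. Obp1a was the most abundant of the 10 genes in 106 of the 117, and Obp1b in 4. In 5, all of the PBS library, Obp2a led beside Obp2b, Lcn3 and Lcn4, with almost no Obp1a. The remaining 2, small lonidamine barcodes of 2799 and 704 UMIs, were led by Mup4 (63.0% and 84.6% of the 10 genes' UMIs) with under 1% of Obp1a. The 24 barcodes with the most UMIs of each library are drawn in the plot of barcode makeup.

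**Figure D2:**
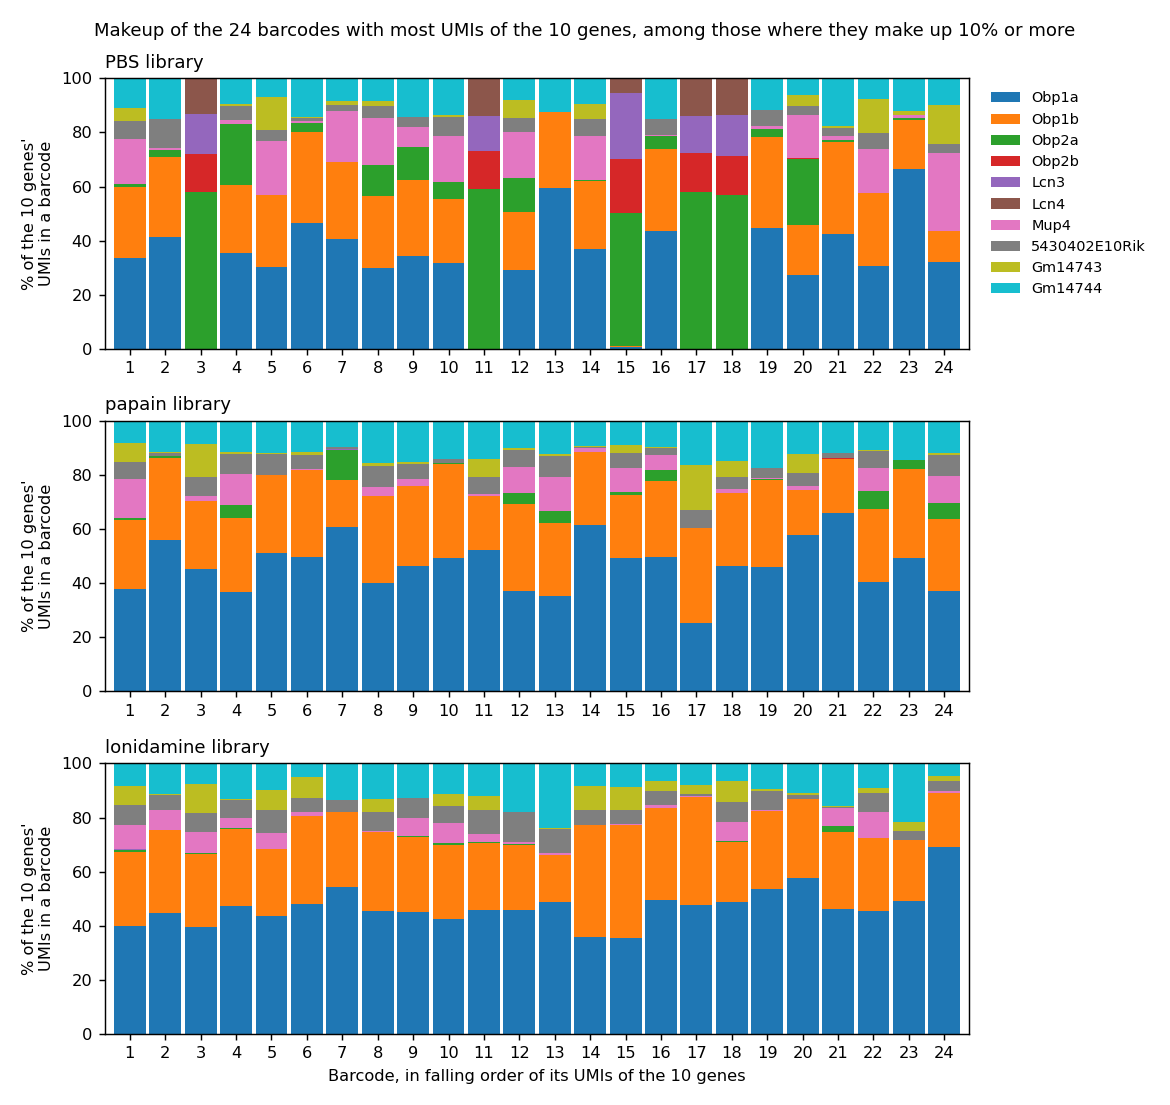
Share of each gene among the 10 genes' UMIs in single barcodes, for the 24 source-rich barcodes with most such UMIs in each library. The 5 PBS barcodes with under 1% of Obp1a are made of Obp2a (49.2 to 59.0%), Obp2b, Lcn3 and Lcn4; the papain and lonidamine bars shown are mostly Obp1a, Obp1b and Gm14744.

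The chromosome X genes with Mup4 made up the first type. Obp1a, an odorant-binding protein of nasal mucus, had 133848 UMIs in the PBS library (1674 CPM, UMIs scaled to a library total of 1000000), 235590 in the papain library (2841 CPM) and 353112 in the lonidamine library (4154 CPM). Obp1b, its partner in the heterodimer purified from nasal tissue, had 99114 UMIs (1239 CPM), 138845 (1674 CPM) and 224564 (2642 CPM) in the same order. Gm14744 had 38525 UMIs (482 CPM), 54464 (657 CPM) and 78998 (929 CPM). All 3 genes were lowest in the PBS library and highest in the lonidamine library.

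In source barcodes rich in Obp1a, by the rule on 10 UMIs and 10-fold given below, Obp1b and Gm14744 varied less against Obp1a than the other genes did. This set is not the source-rich class. In PBS it also held barcodes below the 10% bound, from 2.44% (a serous nasal gland barcode) to 8.02% (a mature olfactory neuron barcode) of UMIs from the 10 genes. In source barcodes with at least 100 Obp1a UMIs (23, 45 and 42 per library), the median ratio of Obp1b to Obp1a UMIs was 0.730, 0.582 and 0.549, and that of Gm14744 to Obp1a was 0.259, 0.268 and 0.234. The SD of the log2 ratio between barcodes was 0.35, 0.77 and 0.42 for Obp1b and 0.36, 0.66 and 0.69 for Gm14744. In papain the ratio to Obp1a ran from 0.033 to 1.39 for Obp1b and from 0.033 to 0.650 for Gm14744. For Mup4 the SD was 3.09, 3.22 and 2.75, for Gm14743 2.89, 2.47 and 2.50, and for 5430402E10Rik 2.35, 2.06 and 1.94. Mup4 and Gm14743 were high in some barcodes and near 0 in others. 5430402E10Rik was over 5% of Obp1a in 19 of 23 PBS, 34 of 45 papain and 33 of 42 lonidamine barcodes. It was under 1% in 3, 4 and 3. The values compare numbers of captured transcript ends, in which transcript length does not enter.

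Mup4 gave the clearest case. In the PBS library its UMIs exceeded 5% of those of Obp1a in 14 of 23 barcodes, with a highest ratio of 0.688, while 2 barcodes were under 1%. That highest ratio (108 Mup4 UMIs beside 157 of Obp1a) was in an ionocyte-like microvillous barcode outside the source-rich class, with 6.28% of UMIs from the 10 genes. The 14 also include a mature olfactory neuron, a tuft and a T and innate lymphoid barcode below the 10% bound. The PBS barcode richest in these genes (144129 UMIs) held 12835 Mup4 UMIs beside 26265 of Obp1a, and the next (83831 UMIs) held 537 beside 24345. In the papain library 16147 of the 29069 Mup4 UMIs (55.5%) were in a single barcode. Mup4 totals were 39842 UMIs (498 CPM) in PBS, 29069 (351 CPM) in papain and 46631 (549 CPM) in lonidamine, the papain library being the lowest.

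Near copies also differed from each other. Gm14743, whose printed upstream stretch equals that of Obp1b, was under 1% of Obp1a in 7 of 23 PBS, 17 of 45 papain and 13 of 42 lonidamine barcodes, while Obp1b was under 1% in none of the 110 barcodes. Gm14743 totals were 13431 UMIs (168 CPM), 19228 (232 CPM) and 36220 (426 CPM). 5430402E10Rik, the near copy of Gm14744, had 19998 (250.1 CPM), 26199 (316 CPM) and 51724 UMIs (609 CPM), and was under 1% of Obp1a in 3, 4 and 3 barcodes, where Gm14744 was under 1% in none. A pair of lonidamine barcodes (16190 and 14431 UMIs) had nearly the same makeup, with Obp1b above Obp1a (41.3% and 41.8% of the 10 genes' UMIs against 36.0% and 35.6%).

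**Figure D3:**
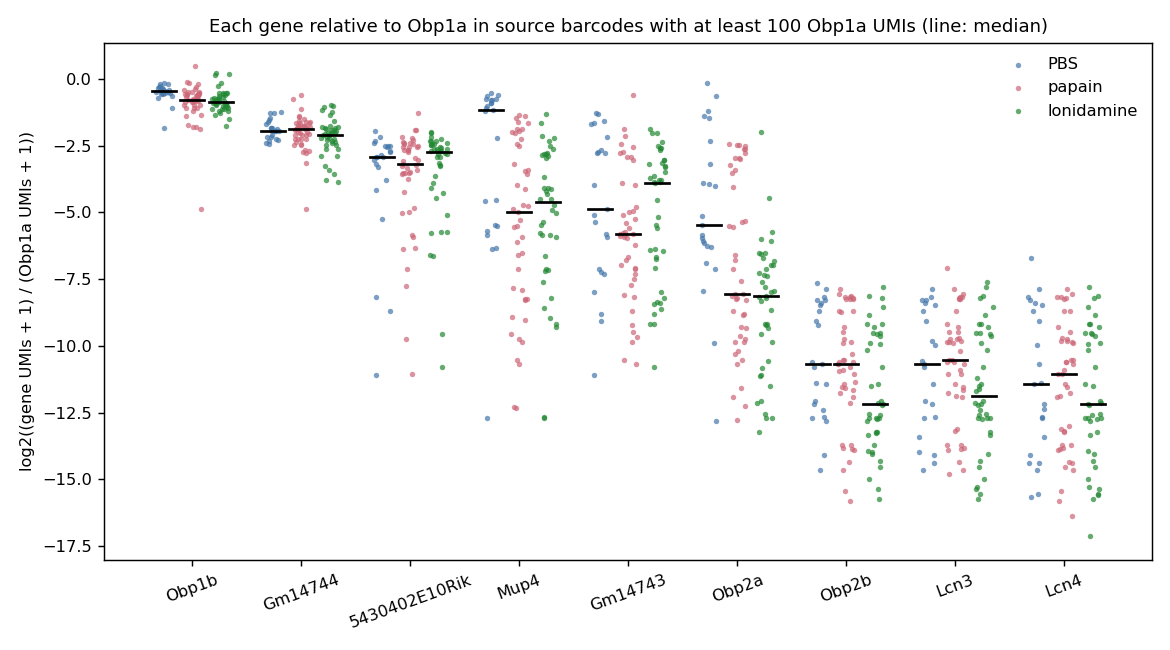
Each gene's UMIs relative to Obp1a (log2 of the ratio with 1 UMI added to both) in the 23 PBS, 45 papain and 42 lonidamine source barcodes with at least 100 Obp1a UMIs; each point is a barcode and each line a median. Obp1b and Gm14744 form narrower bands, with log2 SDs of 0.35 to 0.77, while Mup4, Gm14743 and Obp2a have SDs of 2.45 to 3.22.

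The chromosome 2 genes made up the second type, which was almost all in 1 library. Obp2b had 8353 UMIs in the PBS library (104 CPM), 78 in the papain library and 21 in the lonidamine library. Lcn3 had 8630 (108 CPM), 128 and 53, and Lcn4 had 7323 (91.6 CPM), 50 and 14. Of these, 1 PBS barcode of 55440 UMIs held 5578 Obp2b, 5836 Lcn3 and 5242 Lcn4 UMIs, that is 66.8%, 67.6% and 71.6% of the library's kept UMIs of those genes, with 22921 UMIs of Obp2a and a single one of Obp1a. Most of the PBS total of these 3 genes was in that barcode.

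The 4 genes had nearly the same ratio in 4 of the 5 kept PBS barcodes. In the largest barcode Obp2a, Obp2b, Lcn3 and Lcn4 took 57.9%, 14.1%, 14.7% and 13.2% of their joint UMIs. In the PBS barcodes of 10540, 3996 and 2760 UMIs the shares were 59.0%, 14.0%, 13.2% and 13.8%, then 58.0%, 14.5%, 13.6% and 14.0%, then 56.8%, 14.5%, 15.1% and 13.6%. The remaining PBS barcode, of 5323 UMIs, differed: 49.8%, 20.4%, 24.7% and 5.05% (exact 95% interval for Lcn4 4.32 to 5.87%, against 12.9 to 13.6% in the largest). The barcodes of 10540, 3996 and 2760 UMIs had 926, 436 and 390 genes and 0.066%, 0.40% and 0.036% mitochondrial UMIs. The largest had 3508 genes and 1.45%, and that of 5323 UMIs had 1018 genes and 6.82%. The medians of the PBS library were 2874 genes and 2.38%. The 16-base tags of the 6 PBS Lcn3 source barcodes, these 5 and the Obp1a-led one of 144129 UMIs, differed from each other at 9 to 16 positions.

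A like ratio appeared at low amounts in the papain library. Among all deposited barcodes, filters aside, 3 further PBS barcodes of under 1000 UMIs (907, 737 and 557) and 3 papain barcodes (637, 872 and 2065 UMIs) had at least 50 UMIs of Obp2b, Lcn3 and Lcn4 together and no Obp1a UMI; the barcodes of this kind were taken as those with under 5% as many Obp1a UMIs as UMIs of the 4 genes. In the papain ones Obp2a took 62.6%, 63.9% and 58.3% of the 4 genes' UMIs and Lcn4 took 11.8%, 11.9% and 12.2%; mitochondrial UMIs were 24.96%, 37.96% and 9.20% of the barcode. The lonidamine library had no such barcode. With the 5 kept ones, these barcodes held 97.1%, 97.5% and 98.6% of the deposited Obp2b, Lcn3 and Lcn4 UMIs of the PBS library and 53.7%, 39.9% and 61.7% of those of the papain library.

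Obp2a belonged to both types. It had 48984 UMIs in the PBS library (613 CPM), 7955 in papain (95.9 CPM) and 4786 in lonidamine (56.3 CPM). Beside Obp1a its ratio ranged from 9.27e-05 to 0.896 in the 23 PBS barcodes and was over 5% in 10 of 23 PBS, 14 of 45 papain and 1 of 42 lonidamine barcodes. Obp2b, equal to Obp2a at 79 of the 80 upstream bases shown, stayed at or below 0.4% of Obp1a in all 110.

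Other genes were high in the 2 types, though some had most of their UMIs in other barcodes. Among genes that are no members, ranked by their CPM in the source-rich barcodes not of the Obp2b kind against barcodes below 16 UMIs, 5 were among the leading 10 in all 3 libraries: Lcn11 (a further lipocalin), BC051076, Gm5938, 2310057J18Rik and Klk14 (a secreted kallikrein protease). Lcn11 was detected in all of these barcodes, at 77272 CPM in PBS, 48633 in papain and 35510 in lonidamine, and they held 87.7%, 91.5% and 83.0% of its kept UMIs. For Klk14 the shares were 84.7%, 70.0% and 20.2%. Mup5, another major urinary protein, was among the leading 10 in PBS (81.3% of its UMIs) and lonidamine (83.8%), as was Crisp1, a secreted cysteine-rich protein, in PBS (95.2%) and papain (90.9%). In the 5 Obp2b-type barcodes the leading genes were Dmbt1, a mucosal scavenger protein (82.2% of the library's UMIs), Wfdc18 (11.9%), A2ml1 (7.60%) and Bglap3 (1.97%). Wfdc18 was also among the leading 10 of the first type in PBS and lonidamine. Ranked against all barcodes outside the sources by the rule on 10 UMIs and 10-fold given next, Lcn11 and Wfdc18 were among the leading 10 of Obp1a source barcodes in all 3 libraries. Ltf, one of the gland secretory genes counted below, was among them in papain and lonidamine. It was detected in 16.6%, 82.4% and 67.9% of the PBS, papain and lonidamine Obp1a source barcodes, which held 8.55%, 10.9% and 8.13% of its UMIs. Since these barcodes were picked for the members, the lists are descriptions.

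With the source barcodes of any of the 10 genes left out, a wider set than the source-rich ones, Obp1a, Obp1b, Obp2a, Mup4, 5430402E10Rik, Gm14743 and Gm14744 were detected at a low level in each non-immune class measured. Obp2b, Lcn3 and Lcn4 had a median of 0 CPM over these classes in papain and lonidamine, and in PBS Obp2b was at 0 in Scgb1b27 gland cells and Lcn4 in multiciliated cells. A barcode was called a source of a gene when it had at least 10 of its UMIs and at least 10 times the level of immune cell classes at the same depth; immune cells should lack these genes. The Obp1a barcodes nearest that bound had 10.1, 10.0 and 10.0 times the immune level inside it and 9.90, 9.97 and 9.97 times outside it. This took 487 PBS, 113 papain and 241 lonidamine barcodes. With all of these barcodes left out, Obp1a was at a median of 100.3 CPM over 12 non-immune PBS cell classes (70.1 to 195 CPM), 208 CPM over 15 papain classes (114 to 327) and 645 CPM over 15 lonidamine classes (386 to 911). The immune classes had 131 CPM in PBS, 523 in papain and 1078 in lonidamine, and no non-immune class had a 95% interval above 3 times the immune level for any of the 10 genes in any library. Barcodes at 10 times that level had first been removed, so this cannot show whether a class holds source cells. For Lcn4 the immune level includes the lymphoid UMIs described below. With source barcodes included, an Obp1a UMI was detected in 35.5%, 69.2% and 86.2% of T and innate lymphoid barcodes (median 3024.5, 2936 and 2636 UMIs) and in 60.7%, 87.7% and 91.9% of olfactory (Bowman) gland barcodes (median 21314.5, 18447.5 and 15882.5 UMIs). With source barcodes left out and the rest thinned to 1500 UMIs per barcode, the shares were 18.5%, 46.1% and 68.1% against 15.0%, 21.5% and 41.7%. The thinned shares lack the source barcodes, and the deeper gland barcodes were thinned more strongly. They therefore cannot show whether the gland class holds source cells.

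The second peak was spread over cell classes. It held 476 PBS barcodes (5.08%, exact 95% binomial interval 4.64 to 5.54%), 69 papain barcodes (0.656%) and 828 lonidamine barcodes (6.97%, 6.51 to 7.44%), with a median of 55, 44 and 55 UMIs of the 10 genes. In the PBS library it took from 2.35% (neutrophils) to 8.68% (pericytes and smooth muscle) of each of 16 classes, and in the lonidamine library from 4.83% (T and innate lymphoid) to 14.8% of each of 19 classes. It supplied 398 of the 487 PBS source barcodes, 27 of 113 in papain and 149 of 241 in lonidamine, so the 10-fold rule took both kinds of barcode. Among barcodes of 5000 or more UMIs the shares were 5.63%, 0.720% and 8.22%.

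The makeup of the second peak differed between libraries. In PBS, Mup4 took 16.1% and Gm14743 9.84% of the 10 genes' UMIs, against 11.3% and 4.42% in barcodes below 16 UMIs and 8.84% and 2.56% in source-rich barcodes. In lonidamine Mup4 took 6.63% and Gm14743 1.92% of the second peak, less than the 8.32% and 3.27% below 16 UMIs. In lonidamine source-rich barcodes they took 5.57% and 4.89%, so only Gm14743 was lower in the second peak than in both. In papain Mup4 took 7.48% of barcodes of 32 to 180 UMIs against 4.07% below 16, and Gm14743 took 1.25% against 2.63%. Over 15 PBS classes with at least 200 such UMIs, Mup4 ranged from 10.8 to 19.4%, with 15.98% (15.1 to 16.9%) in mature olfactory neurons, 16.1% (14.6 to 17.7%) in basal epithelium and 16.5% (14.7 to 18.4%) in T and innate lymphoid barcodes. Over 19 lonidamine classes it ranged from 4.81 to 8.14%. Obp2a was 0.665% of the PBS second peak, where it was 6.70% below 16 UMIs and 13.0% in source-rich barcodes, and Obp2b, Lcn3 and Lcn4 were each under 0.1% there.

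**Figure D4:**
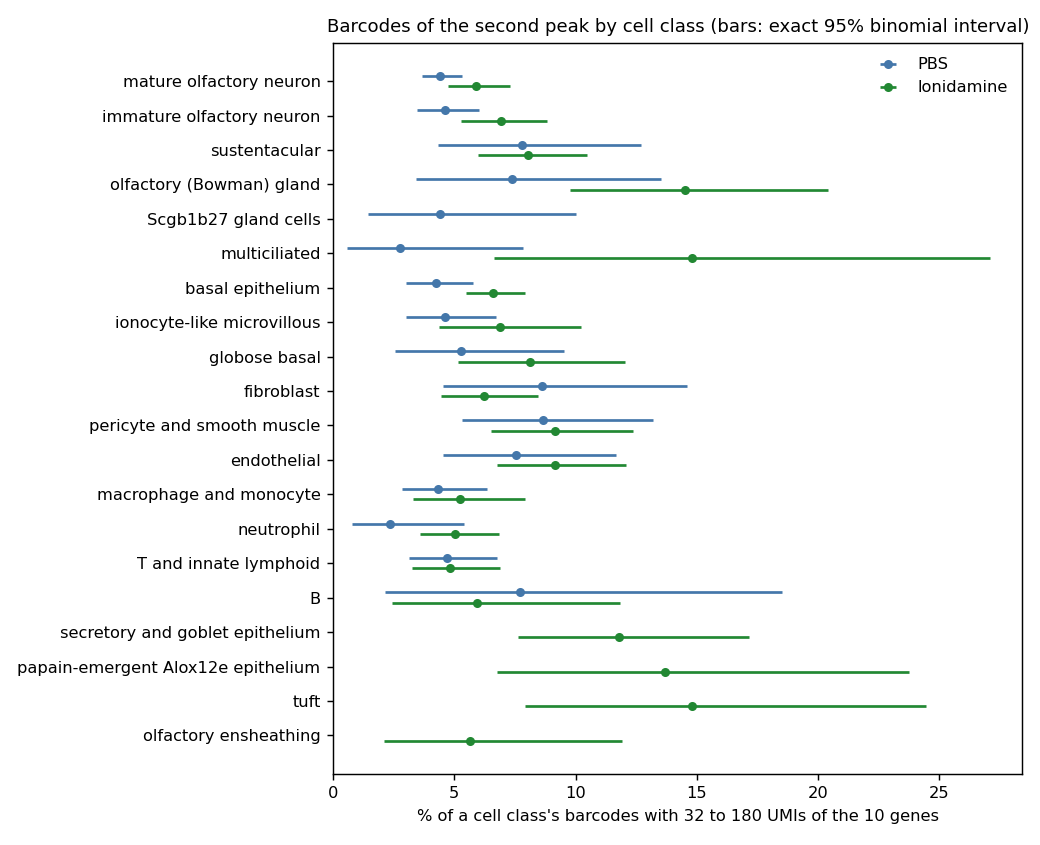
Percent of each marker-gated cell class whose barcodes had 32 to 180 UMIs of the 10 genes, in the PBS and lonidamine libraries, for classes of at least 50 barcodes; bars are exact 95% binomial intervals. Shares run from 2.35 to 8.68% in PBS and from 4.83 to 14.8% in lonidamine, and every class plotted has such barcodes.

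The second peak carried other secretory transcripts too. By the same ranking, Mup5 (93.6 CPM against 1.71 below 16 UMIs), Lcn11 (462 against 29.0) and Bpifa1, a secreted airway defence protein (20759 against 4902), led in PBS. BC051076 (66.8 against 12.4) and Lcn11 (256 against 67.0) led in lonidamine. The part of free RNA in the second peak was not tested.

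Lcn4 was also detected in lymphoid cells. In T and innate lymphoid barcodes it had 17 UMIs in 16 of 574 PBS barcodes, 9 in 9 of 546 papain barcodes and 12 in 11 of 600 lonidamine barcodes, never more than 2 in one. That is 2.79% (1.60 to 4.49%), 1.65% (0.756 to 3.11%) and 1.83% (0.919 to 3.26%) of barcodes, against 0.934%, 0.101% and 0.0178% of all other barcodes outside the rich ones, which were deeper (median 7652.5, 6756.5 and 6028 UMIs against 3024.5, 2936 and 2636). In the lonidamine library this class held 12 of the 14 Lcn4 UMIs. The same lymphoid barcodes with Lcn4 held 1, 0 and 0 UMIs of Obp2b, 1, 0 and 0 of Lcn3 and 6, 1 and 1 of Obp2a. The immune level used above includes this class. Of the 16, 9 and 11 barcodes, 15, 9 and 10 also had a UMI of the T-cell receptor subunit gene Cd3g, and 9, 4 and 7 one of Il17a. Over 54 sums of cell class by library, the genes most like Lcn4 were Gm36723 (Pearson r 0.75), Il17a (0.72), D8Ertd738e (0.72), Cd3g (0.68) and Trdc (0.68), a description over points that share libraries and depth.

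Each of the other genes was most like another of the 10. Over those 54 sums Gm14744 (r 0.99) and Obp1b (0.98) were the most like Obp1a, Gm14743 (0.93) and Mup5 (0.88) the most like Mup4, and Obp2b the most like Lcn3 (0.81). Among the other genes named by that rule were Lcn11 (0.80 with Obp1a) and BC051076 (0.75 with 5430402E10Rik). Lcn3 had 211 UMIs in these sums, and the next genes were Rab24 (0.64), Atp6v0c (0.64), Map1lc3b (0.63) and Atp6v1f (0.63). Obp2b had 202 UMIs, and the next were Fam50a (0.65), Syf2 (0.62), 1810058I24Rik (0.62) and Cript (0.60). Rbm7 (0.63) was the fifth for Gm14743.

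Between libraries, the chromosome 2 genes were lower and the chromosome X genes higher in both papain-treated groups than in PBS over all barcodes. With the source-rich barcodes left out, Obp1b (log2 ratio -0.25), 5430402E10Rik (-0.31) and Gm14743 (-2.07) were lower in papain than in PBS, and Gm14743 was lower in lonidamine (-0.24). Calls here mean a CPM ratio of at least 2-fold, with no test, and intervals cover counting error only. From PBS to papain, 0 of the 10 genes were at least 2-fold higher, where 10.2% of 22862 genes were, and 4 were at least 2-fold lower, where 5.92% were. Those 4 were Obp2a (log2 ratio -2.67), Obp2b (-6.79), Lcn3 (-6.12) and Lcn4 (-7.23). From PBS to lonidamine, 4 were higher (12.4% of 22910 genes) and the same 4 lower (7.6%): the 4 higher ones were Obp1a (log2 ratio 1.31), Obp1b (1.09), 5430402E10Rik (1.28) and Gm14743 (1.34). From papain to lonidamine, 0 were higher (2.9% of 22947 genes) and 3 were lower (2.08%): Obp2b (-1.90), Lcn3 (-1.30) and Lcn4 (-1.84), all from 128 UMIs or fewer. Each library enters 2 of the 3 comparisons, which therefore share values. The median log2 ratio of the 10 genes was -0.08, 0.54 and 0.52, beside -0.02, 0.02 and 0.03 over all genes.

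Leaving out the source-rich barcodes, by the same bound of 10% of UMIs in each library, changed these ratios by up to 6.15 on the log2 scale, and the other scalings changed them by at most 0.05. In papain against PBS 0 members were then at least 2-fold higher (10.2% of 22850 genes) and 5 lower (5.86%): Obp2b (-2.03), Lcn3 (-1.96), Lcn4 (-1.08), Mup4 (-1.96) and Gm14743 (-2.07). Obp1a was at 260 CPM in papain and 230 in PBS, a log2 ratio of 0.18. In lonidamine against PBS 4 were higher (12.5% of 22896 genes), namely Obp1a (1.62), Obp1b (1.40), 5430402E10Rik (1.69) and Gm14744 (1.54), and 3 were lower (7.5%); Obp2a turned from -3.44 to 0.86. In lonidamine against papain 7 were higher (2.97% of 22933 genes) and 3 lower (2.05%). These barcodes were removed for their level of the genes compared, and what remains holds the second peak, with 5.08%, 0.656% and 6.97% of barcodes, so the values are a description of the remaining barcodes.

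The rule on 10 times the immune level removes unlike sets, since that level was 131, 523 and 1078 CPM for Obp1a: it took 398 of 476 second-peak barcodes in PBS, 27 of 69 in papain and 149 of 828 in lonidamine. Ratios without those barcodes, which for Obp1a were 1.27 in papain and 2.65 in lonidamine against PBS, are therefore not compared between libraries. For the chromosome 2 genes, leaving out the 6 PBS Lcn3 source barcodes alone gave papain to PBS log2 ratios of -1.44 for Obp2b, -0.68 for Lcn3, -1.09 for Lcn4 and -1.07 for Obp2a. With the 5 papain Lcn3 source barcodes, which held 90 of that library's 128 Lcn3 UMIs, left out as well, the ratios were -2.25, -2.42, -1.77 and -2.06. These barcodes were picked for their Lcn3 UMIs by the same rule, so both sets of ratios only describe the remaining barcodes. With the source-rich barcodes left out instead, Obp2a was at -0.64, and Obp2b, Lcn3 and Lcn4 were at -2.03, -1.96 and -1.08.

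Barcodes assigned by Xist or Y-linked genes were 68.4%, 82.0% and 89.7% female in the 3 libraries. Among female barcodes alone the log2 ratio of Obp2a between papain and PBS was 0.16, but only 1 of the 24 source-rich PBS barcodes had a female call, against 13 of 45 in papain and 19 of 48 in lonidamine, so nearly all source-rich PBS barcodes are missing from that value.

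**Figure D5:**
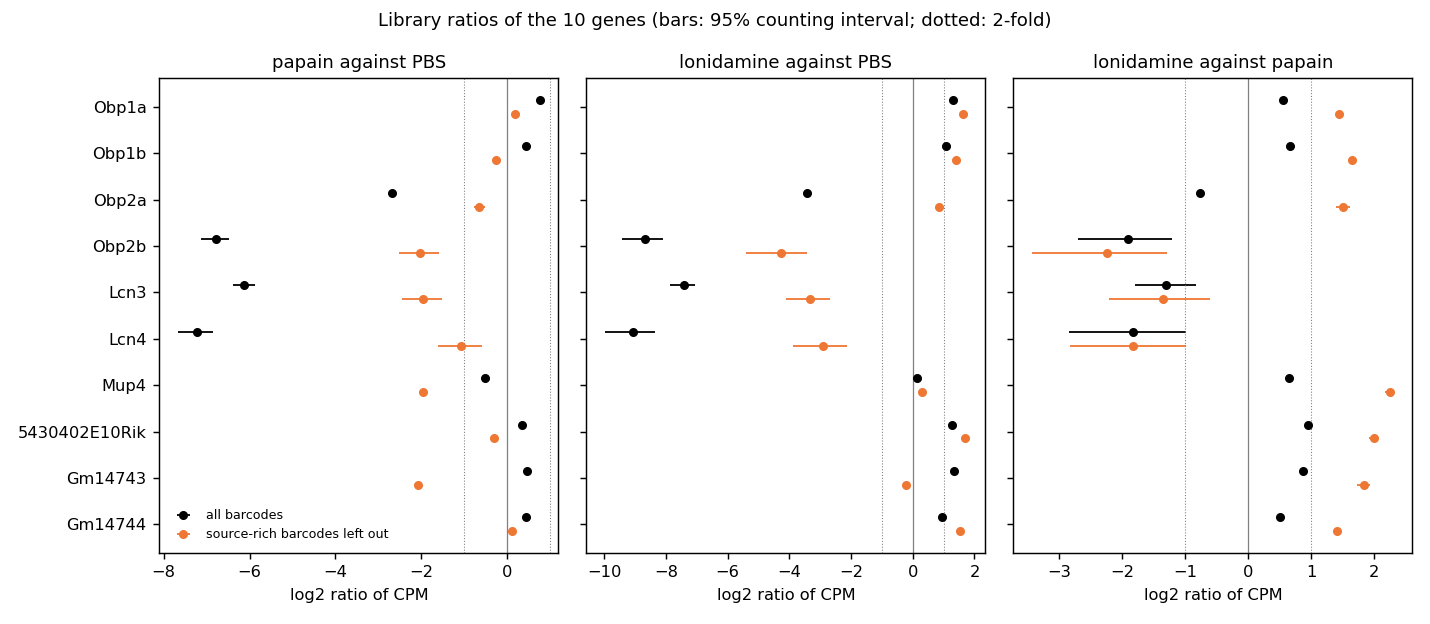
Log2 ratios of CPM between libraries for the 10 genes, over all kept barcodes (black) and with source-rich barcodes left out (orange); bars are 95% counting intervals and dotted lines mark 2-fold. Obp2b, Lcn3 and Lcn4 lie below -6 in papain against PBS over all barcodes and between -1.08 and -2.03 without the source-rich ones, while Obp1a moves from 0.76 to 0.18.

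Lists of related genes, chosen with earlier results known, are given beside the share over all genes, which was 10.2% higher and 5.92% lower in papain against PBS, 12.4% and 7.6% in lonidamine against PBS, and 2.9% and 2.08% in lonidamine against papain. Of 38 other lipocalins, 11 had enough UMIs. In papain against PBS 4 of them were at least 2-fold higher and 2 lower (median log2 ratio 0.16), in lonidamine against PBS 4 and 1 (median 0.46), and in lonidamine against papain 1 and 0 (median 0.06). Of 14 odorant-metabolising enzymes, all measured, 6, 10 and 1 were higher in the same 3 comparisons and 0 lower in each (medians 0.97, 1.24 and 0.29). Of 24 gland secretory genes, 20 were measured in papain against PBS, with 10 higher and 5 lower (median 1.06), 17 in lonidamine against PBS, with 7 and 6 (median -0.44), and 19 in lonidamine against papain, with 1 and 4 (median -0.29). Lcn11, detected in all source-rich barcodes of the first type, had 43680, 44207 and 45788 UMIs (546, 533 and 539 CPM) in the 3 libraries.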

How the data were processed

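The deposited files are raw UMI count matrices, 1 per library, made by the authors with Cell Ranger (version 7.1.0 per the file headers, 2.1.1 per the submitters' processing notes) on GRCm39 per the submitters' processing notes; the treatment of reads shared by near copies is not stated in any label or header. Barcodes under 500 UMIs or 200 genes, or with over 20% of UMIs from mitochondrial genes, were removed. Scrublet (scanpy 1.11.5) called 137, 188 and 262 doublets (1.44%, 1.76% and 2.16%), which were removed. A barcode entered 1 of 24 cell classes when at least 3 markers, and 40% of the class's markers, each reached 2 times the library mean; 83.6%, 80.4% and 78.0% of barcodes entered one. The vomeronasal neuron class held 0 barcodes, and the serous nasal gland class 1, 1 and 2. CPM are UMIs scaled to a total of 1000000 over the kept barcodes. Log2 ratios add 0.5 counts, over genes with at least 20 UMIs in both libraries together, and their conditional binomial 95% intervals were checked on simulated counts. Groups are single pooled libraries, so groups were compared without a test, and treatment and library cannot be told apart. The libraries share 22 to 38 barcode tags in each pair, none of them a source barcode. The members and lists were chosen with earlier results of these data known, and the class bounds, the 10% level, the removal of source-rich or Lcn3 source barcodes and the Lcn4 counts were set after seeing the data. The text names all 10 members, the 5 genes most like each (Pearson r of log2(CPM + 1) over class sums of at least 50 barcodes) and leading genes of source barcodes (at least 50 UMIs, in at least 25% of them). Upstream sequences are RefSeq GRCm38.p6, matched by symbol for 10 of 10 genes; their coordinates belong to that build, not to the files' build.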

Additional observations from a re-analysis of the deposited data

How the results depend on the processing

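With 1 library per group and 1 pool of mice per library, no difference between groups has a replicate check, and intervals cover counting error only. Values of Obp2b, Lcn3 and Lcn4 rest on few counts in the papain and lonidamine libraries, at 14 to 128 UMIs, although these libraries held more UMIs in all than PBS. No paired analysis was possible because each group has 1 library. The cause of the changes listed here was not tested.

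The sex subsets hold few source-rich barcodes (1, 13 and 19 female and 0, 1 and 0 male in PBS, papain and lonidamine), so their values leave most of them out. Among female barcodes the log2 ratio of Obp2a turned to 0.16 in papain against PBS. In lonidamine against PBS it turned to 0.97 with source barcodes left out, 0.86 with source-rich barcodes left out and 0.56 among male barcodes, and that of Gm14743 turned to -0.24 with source-rich barcodes left out and -0.46 among male barcodes. The rule for source barcodes took unlike sets from the 3 libraries. Values with source barcodes left out are therefore listed only as a record of that setting and are not read as differences between libraries. In brackets is the share of all genes called in the same barcodes. The members at least 2-fold higher in papain than in PBS went from 0 to 2 with source barcodes left out (10.2%), 6 among female barcodes (11.3%) and 1 without the PBS source barcodes of Lcn3 (10.1%), and the lower ones from 4 to 2 among female barcodes (6.31%). From papain to lonidamine the higher ones went from 0 to 7 with source barcodes (2.97%) or source-rich barcodes (2.97%) left out, 6 among male barcodes (3.63%) and 2 without the richest barcode of each library (2.92%). The lower ones went from 3 to 0 with a minimum of 200 UMIs (0.535%), with source barcodes left out (2.04%) and among male barcodes (3.47%).

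Obp1a source barcodes numbered 434, 102 and 187, against 715, 398 and 812 at 5 UMIs and 5-fold and 96, 56 and 85 at 20 UMIs and 20-fold; with olfactory neurons as the reference level they were 167 in papain and 407 in lonidamine. Lcn3 sources in papain went from 5 to 3 at 20 UMIs and 20-fold and 8 over all deposited barcodes. The percent of the 10 genes' UMIs in source barcodes was 95.1%, 92.3% and 85.4%. It became 96.7%, 93.5% and 89.1% at the low bound, 90.6%, 92.0% and 84.4% at the high bound, 95.5%, 92.7% and 87.0% with the neuron reference, 94.95%, 92.1% and 84.7% over all deposited barcodes, and 95.1% in PBS with 1 marker more for a class. At 5% of UMIs the source-rich barcodes were 45 in PBS and 84 in lonidamine. The second peak was 5.99%, 1.57% and 9.49% from 23 UMIs, 3.70%, 0.314% and 4.95% from 45 UMIs, and 5.63% and 8.22% in PBS and lonidamine barcodes of 5000 or more UMIs.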
